A study of Mus musculus with 6 samples.

Results

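The angiopoietin-Tie signalling genes were 8 genes taken by symbol from 24421 genes in a table of RNA-seq read counts: Tek, Tie1, Angpt1, Angpt2, Angpt4, Ptprb, Foxo1 and Svep1. All 8 had a row in the table. The table covered 6 libraries of polyadenylated RNA from endothelial cells (the lining of blood vessels) derived from mouse brain, grown in culture and isolated by flow cytometric sorting. Of these, 3 libraries were labelled Fli-1 knockout (KO) and 3 were labelled wild-type (WT), numbered 1 to 3 in each group. Both groups were taken 6 days after the induction of deletion, in co-culture with a vascular niche. Deletion of the Fli-1 alleles was induced with 4-OHT, a tamoxifen metabolite that switches on recombinases made to depend on it, and the labels give this treatment for all samples alike. The recombinase and its driver, the strain and the age are not stated in the labels. Nor do the labels say whether replicates were separate cultures or animals, so p-values measure the spread between these libraries, which may be technical. Libraries were made with a stranded or a non-stranded TruSeq kit, with no label saying which library had which.

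Tie2, the product of Tek, is a receptor tyrosine kinase of endothelial cells. Angiopoietin-1, made mainly by cells around the vessel, activates it, and angiopoietin-2, made by the endothelium itself and kept in storage granules, competes with it or activates Tie2 weakly, depending on context. Active Tie2 signals through PI3-kinase and Akt, which keeps the transcription factor Foxo1 out of the nucleus, and Foxo1 in turn drives transcription of Angpt2. In brain vessels, as elsewhere, the pathway is known for its part in vessel stability and barrier function.

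Several facts of the whole series bear on these genes. Fli1 went against the group labels, with 76.8, 110 and 77.3 CPM (read counts scaled to a common library size with TMM factors) in the libraries labelled KO, against 45.3, 59.5 and 45.7 CPM in those labelled WT. Which exons were deleted is not stated, so a whole-gene count cannot check the deletion, and every direction below is that of the labels. Total counts lay between 17550185 and 21385951 per library. All 12 endothelial markers were expressed, and their summed level was 17027 to 19193 CPM in the libraries labelled KO and 16372 to 18241 CPM in those labelled WT. Blood and neural markers were at or near 0: 12 blood markers summed to 2.00 to 2.67 CPM in the libraries labelled KO and 1.73 to 2.42 CPM in those labelled WT, and Spi1, Tyrobp and Cd52 had 0 reads. The 10 neural and glial markers summed to 2.20 to 3.00 CPM in the libraries labelled KO and 2.56 to 3.11 CPM in those labelled WT. Libraries with the same number deviated together from their group means, with correlations across genes of 0.777, 0.857 and 0.651 in pairs 1, 2 and 3. A test with the number as a block (the paired test) is therefore given beside the test of the groups alone. In bulk RNA, fewer cells of a type and less RNA per cell cannot be told apart.

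The 8 genes spanned more than 4 orders of magnitude once levels were divided by exon length (CPM per kb of the union of exons in GENCODE M21). Angpt2 stood at the top with 1224 ± 121 CPM per kb in the libraries labelled KO and 1188 ± 105 in those labelled WT (SD, n = 3 each). By CPM it ranked 11 among all 24421 genes, and its reads were 0.410% to 0.492% of each library. Tie1 followed with 166 ± 11.7 CPM per kb in the libraries labelled KO and 162 ± 2.53 in those labelled WT (SD, n = 3 each). Ptprb came next at 56.2 ± 1.40 CPM per kb in the libraries labelled KO and 49.2 ± 5.55 in those labelled WT (SD, n = 3 each). These 3 genes did not overlap each other in any of the 6 libraries.

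Tek and Foxo1 shared the fourth place. Tek had 25.8 ± 4.67 CPM per kb in the libraries labelled KO and 23.1 ± 3.72 in those labelled WT, and Foxo1 had 25.0 ± 2.13 in the libraries labelled KO and 23.1 ± 2.53 in those labelled WT (SD, n = 3 each). Tek exceeded Foxo1 in 2 of 6 libraries, so the order between them was within their spread. The remaining genes were lower by a wide step: the mean of Foxo1 over all 6 libraries was 111 times that of Angpt4, the next gene down. Angpt4 averaged 0.217 CPM per kb, Angpt1 0.0523 and Svep1 0.0424 over the 6 libraries, and the ranges of neighbours among these 3 overlapped. Within libraries, Angpt4 per kb was above Angpt1 in 6 of 6, and Angpt1 above Svep1 in 4. Before division by length, the reads of Angpt4 and Angpt1 were equal or in the reverse order in some libraries.

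**Figure D1:**
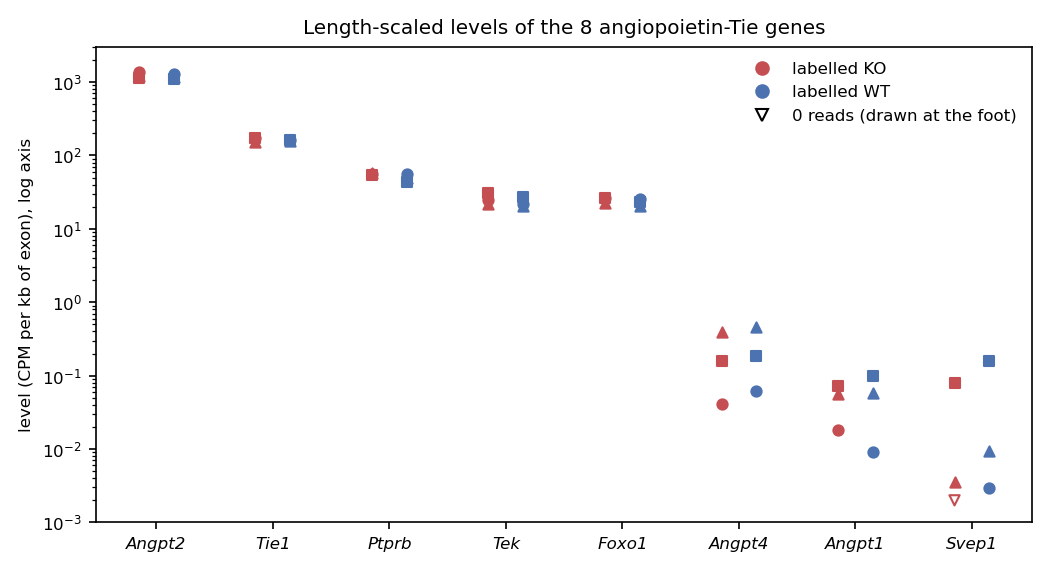
Length-scaled level (CPM per kb of exon, log axis) of each gene in each library, labelled KO (red, left) and labelled WT (blue, right), with circle, square and triangle for replicate numbers 1, 2 and 3. Angpt2, Tie1, Ptprb, Tek and Foxo1 sit above 20 CPM per kb in every library, and Angpt4, Angpt1 and Svep1 below 0.5; the open triangle marks the library in which Svep1 had 0 reads.

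Of the 8 genes, 5 passed the filter on low counts and were tested among 12753 genes: Tek, Tie1, Angpt2, Ptprb and Foxo1. In the edgeR test of the groups without the pairs, 0 of the 5 passed an adjusted p of 0.05, where 0.00784% of all tested genes passed, and 0 of 5 had an unadjusted p under 0.05, where 4.79% did. DESeq2 and limma-voom without the pairs also called 0 of the 5. In the paired test Ptprb and Tek rose and 3 did not pass, where 4.81% of all tested genes rose, 4.01% fell and 8.81% passed in either direction. Neither Ptprb nor Tek passed when pair 2 was left out. Calls were also fewer over all genes tested in that fit, with 339 higher and 205 lower, against 613 and 511 with all pairs. The groups overlapped for all 5 genes, where 10.2% of all tested genes had groups that did not overlap and 5.25% had every library labelled KO above every library labelled WT. The library labelled KO was higher in all 3 pairs for Tek, Angpt2, Ptprb and Foxo1, where 20.5% of all tested genes were higher in all 3 pairs and 40.7% moved the same way in all 3. The median log2 fold change of the 5 was 0.12 in the paired test, against -0.0033 over all genes tested.

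Tek (ENSMUSG00000006386, GRCm38 chromosome 4, 94739289 to 94874976, plus strand) encodes the Tie2 receptor. It had 116, 146 and 103 CPM in the libraries labelled KO numbered 1, 2 and 3, against 102, 129 and 95.5 CPM in those labelled WT. The order of the numbers was the same in both groups, with number 2 highest and number 3 lowest, and the library labelled KO was higher in 3 of 3 pairs although the groups overlapped. The replicate number held 85.3% of the sum of squares of its log2 CPM, the group 14.0%, and 0.746% was left over. The medians of these shares over all genes tested were 61.7%, 11.0% and 14.1%. The paired test put its log2 fold change at 0.16 ± 0.045 (SE; adjusted p = 0.0158), and the fit without the pairs gave 0.16 ± 0.16 (SE; adjusted p = 0.996). Within the pairs the log2 ratios were 0.19, 0.18 and 0.11. Tek did not pass in the paired test with DESeq2 (adjusted p = 0.182), with scaling by library size alone (adjusted p = 0.0506) or without pair 2 (adjusted p = 0.288); its adjusted p was 0.0127 to 0.0402 without pair 1 or 3, with limma-voom or with RLE scaling.

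The DNA just before the start of Tek and Foxo1 is shown because the study targets Fli1, a factor of the ETS family, whose members recognise a core of GGAA. Promoter entries were at hand in RefSeq (GRCm38) for 5 of the 8 genes: Tek, Tie1, Angpt4, Foxo1 and Svep1. These are the 250 bases before the RefSeq gene start, 5′ to 3′ on the gene's strand, at chr4:94739039-94739288 for Tek and chr3:52268087-52268336 for Foxo1 (both plus strand), with GGAA or its reverse complement TTCC in capitals:
Tek: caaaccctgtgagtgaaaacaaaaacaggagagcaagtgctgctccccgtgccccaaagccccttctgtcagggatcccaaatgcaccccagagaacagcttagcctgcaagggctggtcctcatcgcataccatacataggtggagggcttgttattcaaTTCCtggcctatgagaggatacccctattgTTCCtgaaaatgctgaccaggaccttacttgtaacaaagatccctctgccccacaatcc
Foxo1: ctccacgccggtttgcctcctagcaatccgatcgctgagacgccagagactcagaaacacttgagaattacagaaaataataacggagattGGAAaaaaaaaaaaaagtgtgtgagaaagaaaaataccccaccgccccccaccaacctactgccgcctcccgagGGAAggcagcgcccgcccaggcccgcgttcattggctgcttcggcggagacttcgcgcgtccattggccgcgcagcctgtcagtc
The Tek window held 2 matches to GGAA on either strand, both read as TTCC, and Foxo1 held 2, both read as GGAA. The same window held 7 matches for Tie1, 6 for Svep1 and 5 for Angpt4. Of 32851 promoter windows of this length, 93.4% held at least 1 match, 76.8% at least 2 and 3.82% at least 7. The longer form CCGGAA, which contains GGAA, was in none of the 5 windows and in 12.0% of all windows. These letters were counted on both strands and say nothing of binding.

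Tie1 (ENSMUSG00000033191, GRCm38 chromosome 4, 118471191 to 118490061, minus strand) encodes the receptor that pairs with Tie2 and modulates its signal. It had 852, 844 and 749 CPM in the libraries labelled KO, against 802, 808 and 784 CPM in those labelled WT. Pairs 1 and 2 were slightly higher and pair 3 lower in the library labelled KO, with the WT values inside the KO range. The paired log2 fold change was 0.029 ± 0.041 (SE; 95% interval -0.054 to 0.11; adjusted p = 0.759). Per kb, Tie1 was 5.55 to 7.03 times Tek in the libraries labelled KO and 6.02 to 7.86 times in those labelled WT. The lowest of these ratios fell in number 2 in both groups, where Tek was highest.

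Angpt2 (ENSMUSG00000031465, GRCm38 chromosome 8, 18690263 to 18741562, minus strand) encodes the context-dependent ligand that endothelial cells make themselves. It had 5005, 4125 and 4418 CPM in the libraries labelled KO, against 4776, 4003 and 4373 CPM in those labelled WT. Number 1 was highest and number 2 lowest in both groups, and the number held 95.6% of its sum of squares against 3.50% for the group. The paired log2 fold change was 0.042 ± 0.040 (SE; 95% interval -0.040 to 0.12; adjusted p = 0.620). Without the pairs the interval was -0.20 to 0.29. The library labelled KO was higher in 3 of 3 pairs with TMM and in 2 of 3 with scaling by library size alone. Mcph1 overlaps Angpt2 on the opposite strand, with 0 bases of exon shared.

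Ptprb (ENSMUSG00000020154, GRCm38 chromosome 10, 116275523 to 116389535, plus strand) encodes the endothelial receptor phosphatase VE-PTP, which removes phosphate from Tie2 and is bound to VE-cadherin. It had 750, 731 and 768 CPM in the libraries labelled KO, against 733, 585 and 651 CPM in those labelled WT. The libraries labelled KO lay close together, and the library labelled WT with number 1 reached their level, so the groups overlapped. Ptprb differed from the other tested members in how its spread fell: the group held 51.3% of the sum of squares and the number 29.4%, a difference between genes that was not tested. The paired test put its log2 fold change at 0.20 ± 0.045 (SE; adjusted p = 0.00263), and the fit without the pairs gave 0.19 ± 0.090 (SE; adjusted p = 0.996, unadjusted p = 0.0718). Within the pairs the log2 ratios were 0.033, 0.32 and 0.24. Without pair 2 the fold change was 0.13 with an adjusted p of 0.307, and without pair 1 it was 0.28 with an adjusted p of 6.9e-09. Fits with a pair left out have fewer libraries and fewer residual degrees of freedom than the full paired test. Their p-values lean largely on the spread of other genes, so the small value without pair 1 is not stronger evidence. The adjusted p of Ptprb was 0.00197 to 0.0114 under the other paired alternatives.

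Foxo1 (ENSMUSG00000044167, GRCm38 chromosome 3, 52268336 to 52353221, plus strand) encodes the transcription factor that Tie2 signalling restrains through Akt. It had 228, 228 and 196 CPM in the libraries labelled KO, against 222, 200 and 179 CPM in those labelled WT. Number 3 was lowest in both groups, and 3 of 3 pairs were higher in the library labelled KO, by log2 ratios of 0.032, 0.19 and 0.13. The paired log2 fold change was 0.12 ± 0.042 (SE; 95% interval 0.032 to 0.20; adjusted p = 0.0776). Foxo1 passed without pair 1 (adjusted p = 0.00523) and under none of the other paired alternatives, whose adjusted p lay between 0.0723 and 0.676. An antisense gene without a row in the table shares 674 of the 8665 exon bases of Foxo1. No label gives the strand setting of the counting, so reads in the shared bases cannot be assigned to 1 of the 2 genes.

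**Figure D2:**
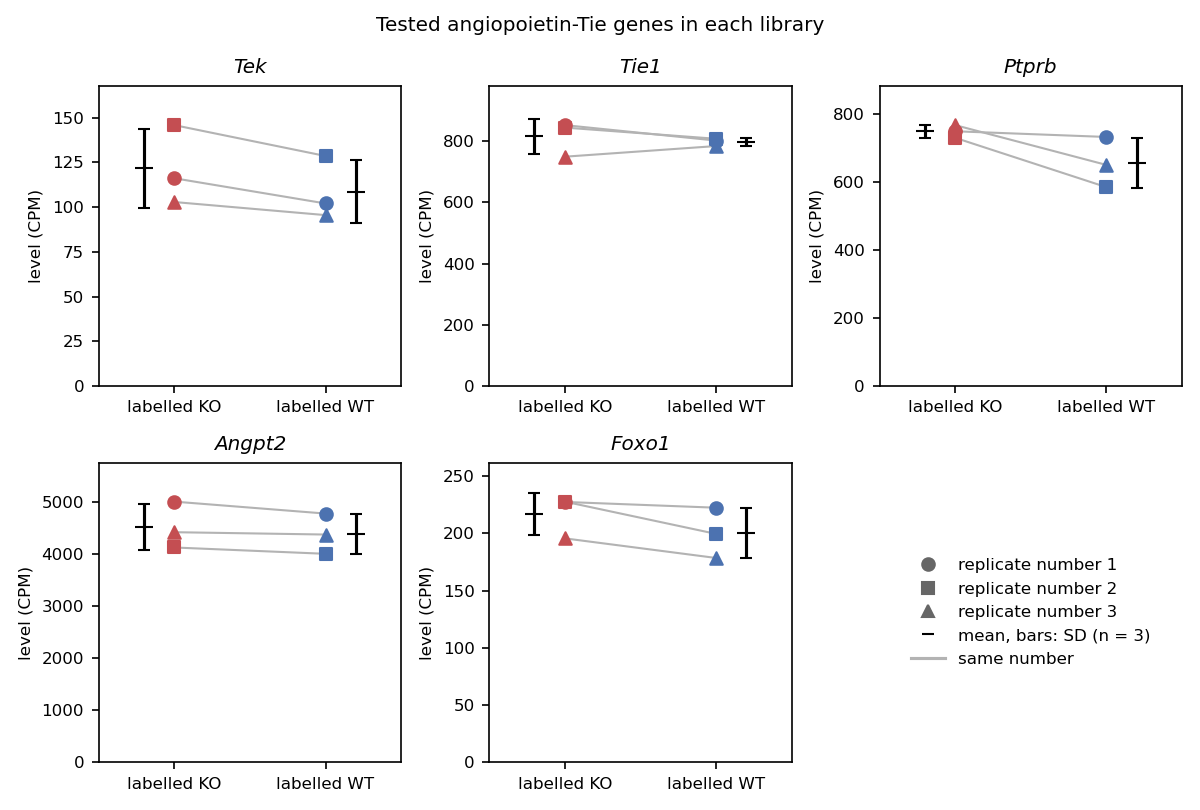
Level (CPM, axes from 0) of the 5 tested genes in each library, labelled KO (red, left) and labelled WT (blue, right); grey lines join libraries with the same number, and black marks are group means with SD (n = 3). The lines run nearly parallel for Tek and Angpt2, and those for Ptprb start together in the libraries labelled KO and spread to 585 to 733 CPM in those labelled WT.

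**Figure D3:**
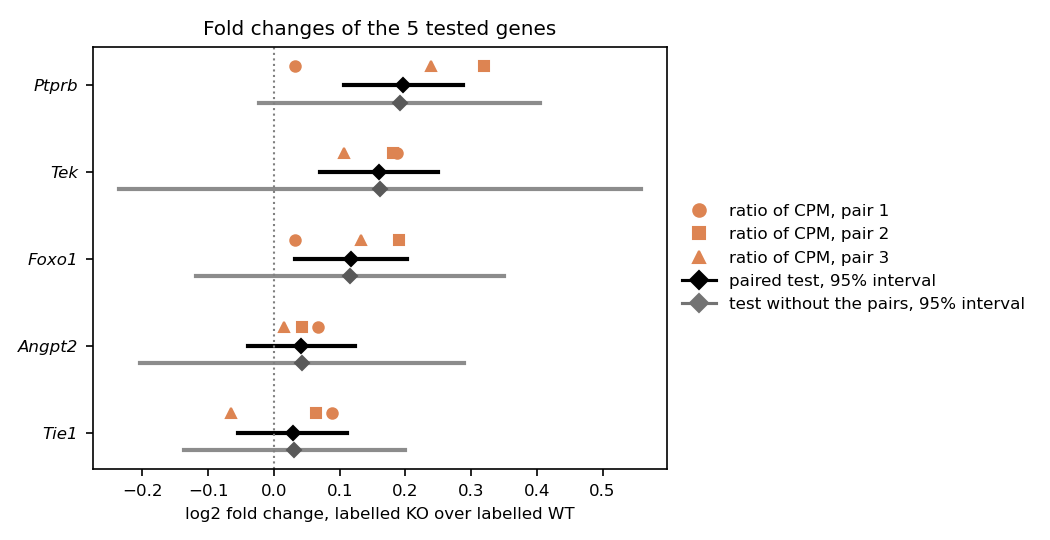
Log2 fold change of each tested gene, labelled KO over labelled WT: ratios of CPM within each pair (orange), the paired test (black) and the test without the pairs (grey), with 95% intervals. The paired intervals of Ptprb, Tek and Foxo1 lie above 0, from 0.11 to 0.29, 0.069 to 0.25 and 0.032 to 0.20, while all 5 intervals without the pairs cross 0.

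Cell division genes moved with the groups: all 12 proliferation markers rose in the paired test. Of all tested genes 4.81% rose and 4.01% fell in that test, shares that stand beside each paired count below. The 12 markers had a summed level of 277 to 469 CPM in the libraries labelled KO and 158 to 257 CPM in those labelled WT. All 12 also passed without pair 2, where 339 of all genes tested rose and 205 fell. In the test without the pairs 0 of the 12 passed, where 0.00784% of all tested genes passed. In that test 11 of the 12 had an unadjusted p under 0.05, where 4.79% of all tested genes did. Among the endothelial markers Emcn rose and Robo4 fell in the paired test, with log2 fold changes of 0.20 and -0.14. Without pair 2, 0 endothelial markers were called higher and 1 lower, so the call of Emcn was lost. Markers of the cells that surround vessels (mural markers) did not share 1 order of the numbers. Pdgfrb was highest in number 2 of both groups, with 10.5, 53.8 and 11.4 CPM in the libraries labelled KO. It had 15.8, 81.3 and 10.2 CPM in those labelled WT. Tagln was lowest in number 2 of both groups, with 1103, 982 and 1443 CPM in the libraries labelled KO. It had 1047, 1013 and 1225 CPM in those labelled WT. The summed mural level in the libraries labelled KO was 1446, 1886 and 1896 CPM, highest in number 3. In those labelled WT it was 1427, 2256 and 1597 CPM, highest in number 2. Of 11 tested mural markers 3 fell in the paired test and 0 rose (2 fell without pair 2), and 13 mural markers summed to 1446 to 1896 CPM in the libraries labelled KO and 1427 to 2256 CPM in those labelled WT. Of 7 tested fibroblast markers 3 fell and 1 rose (2 fell and 0 rose without pair 2), and the 10 markers of that list summed to 113 to 908 CPM in the libraries labelled KO and 154 to 1272 CPM in those labelled WT. The part of these genes in the changes of Ptprb and Tek was not tested.

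The genes whose log2 CPM ran most like each tested member over the 6 libraries were read from 8985 genes with a mean of at least 10 CPM. The closest were Cd276 for Tek (Pearson r = 0.994), Tox4 for Tie1 (0.985), Arhgef28 for Angpt2 (0.996), Klhl4 for Ptprb (0.997) and Ppp6r3 for Foxo1 (0.995). The next for each were Nfkb1 and Enpp2 for Tek, Map1lc3b and Sec22a for Tie1, Ccdc181 and Prex1 for Angpt2, Cep295 and Rbms2 for Ptprb, and Ppp3cb and Rps6ka3 for Foxo1. With 6 libraries that fall into pairs, these values are a description only, and the lowest, for Sec22a with Tie1, was 0.972.

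The ligands other than Angpt2, and Svep1, were too low to be tested. Angpt1 (ENSMUSG00000022309, GRCm38 chromosome 15, 42424723 to 42676977, minus strand), which encodes the agonist angiopoietin-1, had 2, 7 and 5 reads in the libraries labelled KO, against 1, 11 and 6 reads in those labelled WT. Number 1 was lowest and number 2 highest in both groups, and the groups overlapped. The highest library, number 2 labelled WT, had 0.522 CPM with a 95% Wilson interval of 0.292 to 0.935, and the lowest, number 1 labelled WT, had 0.0477 CPM with an interval of 0.00842 to 0.270; these intervals cover counting error only. An antisense gene without a row in the table shares 737 bases of exon with Angpt1.

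The balance of the 2 main ligands was therefore set by a handful of Angpt1 reads. There were 52612, 11028 and 15258 Angpt2 reads for each Angpt1 read in the libraries labelled KO, against 100101, 7666 and 14298 in those labelled WT. The log2 ratio, with 0.5 added to each count, averaged 14.2 ± 1.07 in the libraries labelled KO and 14.2 ± 1.65 in those labelled WT (SD, n = 3 each). The difference was -0.035, with a two-sided exact permutation p of 1 where the smallest p for 3 against 3 libraries is 0.1. With 5 added in place of 0.5 the difference was 0.035, so its direction was not set by these data.

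Angpt4 (ENSMUSG00000027460, GRCm38 chromosome 2, 151911210 to 151945337, plus strand), which encodes a further Tie2 ligand, had 2, 7 and 16 reads in the libraries labelled KO, against 3, 9 and 21 reads in those labelled WT. Number 3 was highest and number 1 lowest in both groups, an order unlike that of Angpt1. The library labelled KO was lower in 3 of 3 pairs, with overlapping intervals in number 3: the 95% Wilson bounds were 0.570 to 1.51 CPM in the library labelled KO and 0.70 to 1.64 CPM in the library labelled WT.

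Svep1 (ENSMUSG00000028369, GRCm38 chromosome 4, 58042442 to 58206859, minus strand) encodes a large matrix protein that is reported to bind Tie1 and acts in lymphatic vessels. It had 0, 24 and 1 reads in the libraries labelled KO, against 1, 54 and 3 reads in those labelled WT. Nearly all of its reads were in number 2, in both groups. A count of 0 in number 1 labelled KO allows a level of up to 0.143 CPM (3 reads). In number 2 the level was 1.28 CPM in the library labelled KO, with a 95% Wilson interval of 0.862 to 1.91, and 2.56 CPM in the library labelled WT, with an interval of 1.96 to 3.34. Number 2 also held the highest level of the fibroblast collagen gene Col1a1, with 70.9, 507 and 220 CPM in the libraries labelled KO, against 88.4, 729 and 239 CPM in those labelled WT. Whether the Svep1 reads came from such cells was not tested. Of the 6 lymphatic markers, Prox1 had 6 reads in all and Ccl21a had 0, while Pdpn, Lyve1 and Reln had 759, 734 and 174. Flt4 had 262, 253 and 253 CPM in the libraries labelled KO, against 267, 273 and 270 CPM in those labelled WT. A noncoding gene on the opposite strand shares 2244 bases of exon with Svep1.

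**Figure D4:**
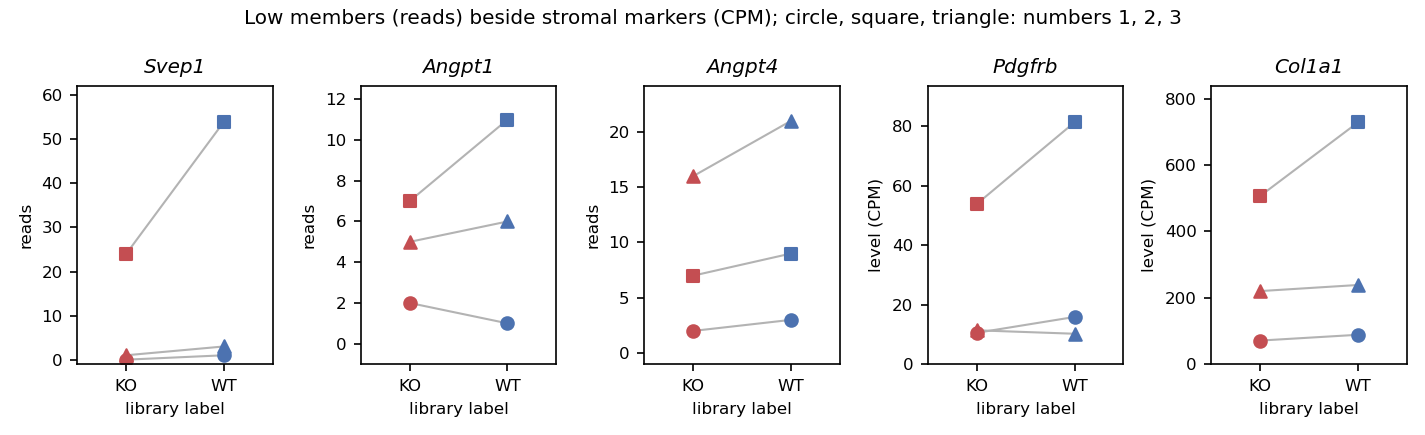
Reads of Svep1, Angpt1 and Angpt4 and level (CPM) of the stromal markers Pdgfrb and Col1a1 in each library, labelled KO (red, left) and labelled WT (blue, right), with circle, square and triangle for numbers 1, 2 and 3. Svep1, Pdgfrb and Col1a1 are highest in number 2 (squares) of both groups, with 24 Svep1 reads in the library labelled KO and 54 in that labelled WT, whereas Angpt4 is highest in number 3 (triangles), with 16 reads in the library labelled KO and 21 in that labelled WT.

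Genes around the pathway were read from 6 lists of 85 genes, of which 84 had a row and 74 were tested. Without the pairs 0 of the 74 passed with edgeR, DESeq2 or limma-voom. Of all genes, edgeR then called 0 higher and 1 lower, DESeq2 12 higher and 7 lower, and limma-voom 0. In the paired test 7 of the 74 rose and 5 fell, where 4.81% of all tested genes rose and 4.01% fell. With pair 2 left out 3 genes of the lists rose and none fell, where 339 of all genes tested rose and 205 fell. The 3 were Itgav, Birc5 and Selp (P-selectin, named here after its values were seen). Selp had a log2 fold change of 0.89 without pair 2, against 0.45 in the paired test with all pairs (adjusted p = 0.549). With paired DESeq2, 3 rose and 0 fell: Fn1, Birc5 and Jup. In the Tie2 adaptor and effector list, 1 of 20 tested members rose and 0 fell, a share near the 4.81% of all tested genes that rose. The median over the 20 was 0.0061 on the log2 scale. That gene was Nos3, the endothelial nitric oxide synthase, which had 316 ± 71.1 CPM in the libraries labelled KO and 287 ± 73.2 CPM in those labelled WT (SD, n = 3 each). Its log2 fold change was 0.15 with an adjusted p of 0.0199, which became 0.447 without pair 2. Akt1, the most abundant of that list, was 0.036 with an adjusted p of 0.683.

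The next list held integrins, proteases and matrix proteins that bind or cleave the receptors and ligands. Of its 11 tested genes 4 rose, 0 fell and 7 did not pass, where 4.81% of all tested genes rose and 4.01% fell. Their median log2 fold change was 0.056. Itgav, the αv integrin subunit, had 393 ± 12.2 CPM in the libraries labelled KO and 332 ± 34.3 CPM in those labelled WT (SD, n = 3 each), a log2 fold change of 0.24 with an adjusted p of 0.00195. It was the only gene of the 4 that still passed without pair 2 (adjusted p = 0.00311), and it did not pass with DESeq2. Fn1, which encodes the matrix protein fibronectin, averaged 21972 CPM in the libraries labelled KO and 19445 CPM in those labelled WT and rose by 0.18. The integrin subunits Itgb3 and Itga4 rose by 0.13 and 0.17; without pair 2 the adjusted p of Fn1, Itgb3 and Itga4 was 0.379, 0.428 and 0.0519.

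Of 21 tested FoxO family members and genes reported as FoxO1 targets, 1 rose, 3 fell and 17 did not pass, where 4.81% of all tested genes rose and 4.01% fell. Their median log2 fold change was -0.064. Birc5, which encodes survivin and is also 1 of the 12 proliferation markers, had 16.9 ± 3.82 CPM in the libraries labelled KO and 8.76 ± 3.59 CPM in those labelled WT (SD, n = 3 each), a log2 fold change of 0.97 with an adjusted p of 1.93e-07. Txnip, an inhibitor of thioredoxin, fell by 0.14, Ccng2, an atypical cyclin, fell by 0.17 and Bcl6, a transcriptional repressor, fell by 0.60 on the log2 scale. Bcl6 was low, with 2.66 ± 0.204 CPM in the libraries labelled KO and 4.10 ± 1.52 CPM in those labelled WT (SD, n = 3 each). Its log2 ratios in pairs 1, 2 and 3 were -0.14, -1.04 and -0.50. Without pair 2 Txnip, Ccng2 and Bcl6 did not pass, with adjusted p of 0.0644, 0.300 and 0.608, and Birc5 did. Apln, the peptide apelin and the most abundant of the list, averaged 6604 CPM in the libraries labelled KO and 6665 CPM in those labelled WT, with a log2 fold change of -0.0085 (adjusted p = 0.937).

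The other 3 lists had a single call each in the paired test, where 4.81% of all tested genes rose and 4.01% fell. Of 3 tested angiopoietin-like genes Angptl2 fell by 0.31 on the log2 scale, with levels of 12.6 ± 12.0 CPM in the libraries labelled KO and 15.5 ± 14.9 CPM in those labelled WT (SD, n = 3 each); Angptl4, the most abundant, had a log2 fold change of -0.047 (adjusted p = 0.573). Among 7 tested relatives and partners of Ptprb, Jup, the junction protein plakoglobin, rose by 0.17 (adjusted p = 0.00409), and Cdh5, which encodes VE-cadherin, had a log2 fold change of 0.050 with an adjusted p of 0.55. Of 12 tested genes of the Weibel-Palade body, the granule that stores angiopoietin-2, Stx3, a membrane fusion protein, fell by 0.21 (adjusted p = 0.0199). Vwf, its main cargo, had 466 ± 339 CPM in the libraries labelled KO and 448 ± 319 CPM in those labelled WT (SD, n = 3 each). Angptl2, Jup and Stx3 did not pass without pair 2, with adjusted p of 0.408, 0.106 and 0.215.

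**Figure D5:**
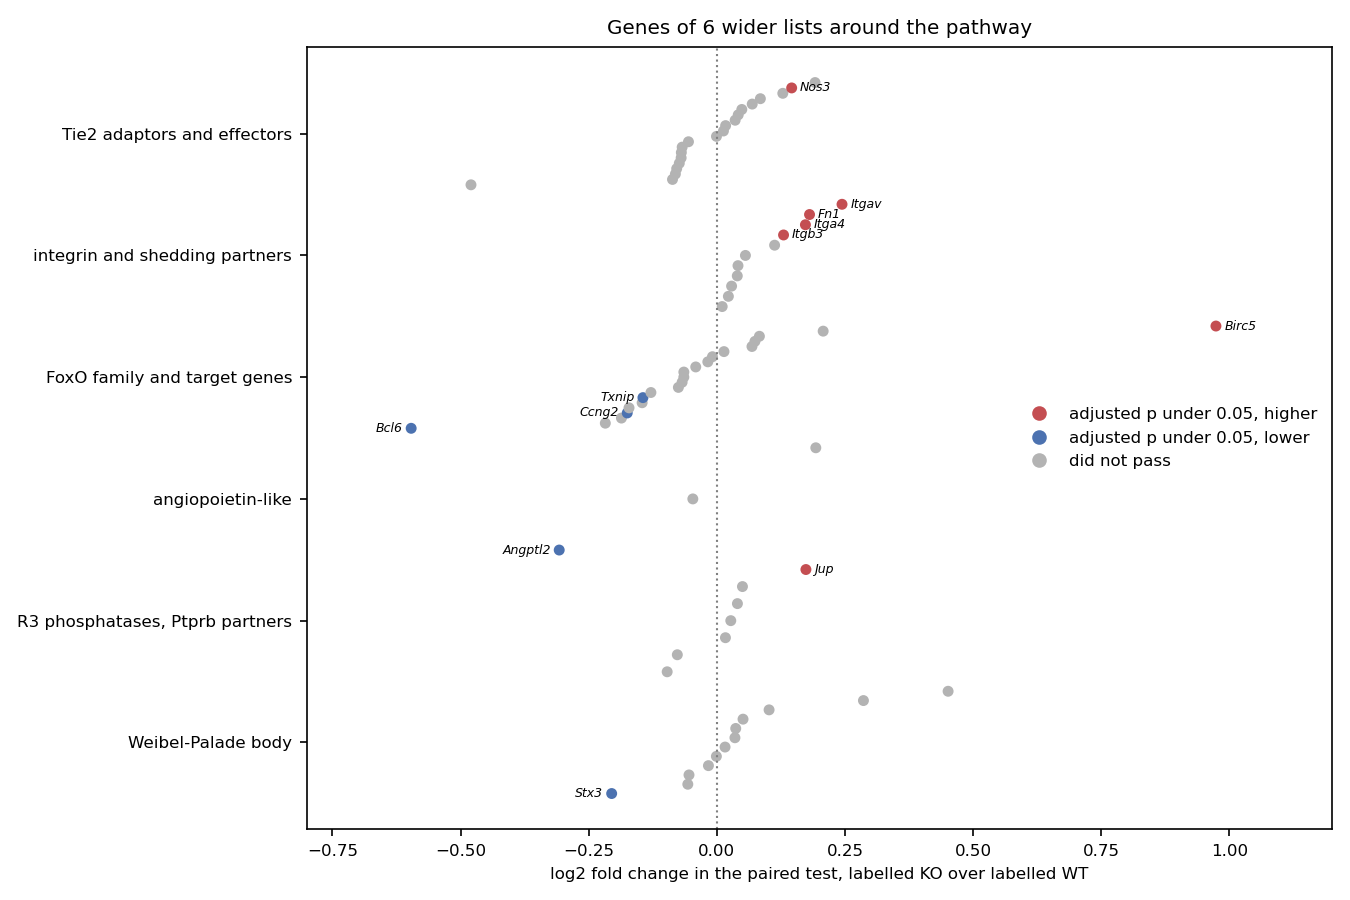
Log2 fold change in the paired test, labelled KO over labelled WT, of the 74 tested genes of the 6 wider lists; each point is a gene, red where it rose, blue where it fell and grey where it did not pass an adjusted p of 0.05. Most points lie within 0.2 of 0, and Birc5 at 0.97 and Bcl6 at -0.60 are the called genes farthest from it.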

How the data were processed

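Raw counts of reads for each gene in 6 libraries were used as deposited. Per the submitters' processing notes, the authors used FastQC 0.11.8, Trim Galore 0.6.4, STAR 2.6.1d and featureCounts of Subread 1.6.4 with the mouse build mm10 (GRCm38). Symbols were matched to GENCODE M21 for position and exon length, and 23334 of 24421 (95.5%) matched once.

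Counts were tested with edgeR 4.0.16 in R 4.3.3 (TMM scaling, filterByExpr, robust quasi-likelihood F test, Benjamini-Hochberg adjustment over all 12753 genes tested, threshold 0.05), with group as the only term. The paired test added the replicate number as a block. Its pairing came from the data, not from the labels: each same-numbered correlation of deviations from the group means was over 0.1. Residual degrees of freedom were 4, and 2 with the block. They were fewer than 2 with the block and a pair left out. The SE is the log2 fold change divided by the square root of F. CPM are counts over the library total multiplied by its TMM factor (0.983 to 1.02), brought to the usual CPM scale. Intervals on reads are 95% Wilson intervals, a count of 0 was read as up to 3 reads, and both cover counting error only. Libraries of the same group differed by more than counting noise (chi-square per degree of freedom 7.77 to 28.3). Over any 2 libraries, also across the groups, the range was 4.62 to 33.1. The fits were tested on simulated data, with planted changes larger than those of the 5 tested members. That check cannot show how changes of their size are recovered.

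The text names all 8 members and, in each wider list, the genes called in either fit (at most 4) with the most abundant gene. It also names, for each tested member, the 3 genes with the highest Pearson correlation of log2 CPM (prior count 2). The members and lists were chosen with earlier results of these data known. Alternatives used DESeq2 1.42.0, limma 3.58.1 (voom), other scaling, no filter, a threshold of 0.01, and each library or pair left out.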

Additional observations from a re-analysis of the deposited data

How the results depend on the processing

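The paired fits with RLE scaling, limma-voom or a threshold of 0.01 were chosen after seeing the data. Of all genes, the fit without the pairs called 0 higher and 1 lower. DESeq2 called 12 higher and 7 lower, limma-voom 0 lower, a threshold of 0.01 0 lower, and leaving out a library 0 to 1 lower. It called 0 members and 0 genes of the wider lists under each of these. With the replicate number as a block, 613 genes were higher and 511 lower, with 2 members higher (Tek at 0.16 and Ptprb at 0.20 on the log2 scale) and 7 list genes higher and 5 lower. Paired DESeq2 called 262 genes higher and 111 lower, 1 member higher, and 3 list genes higher and 0 lower, with Tek at 0.16. Paired scaling by library size alone called 471 higher and 734 lower, 1 member higher, and 4 list genes higher and 7 lower, with Tek at 0.13; it moved the median of all genes by -0.027. A paired threshold of 0.01 called 388 higher and 259 lower, 1 member higher, and 4 list genes higher and 0 lower, with Tek at 0.16. Leaving out a pair gave 339 to 603 genes higher, 205 to 600 lower, 0 to 3 members higher, 3 to 8 list genes higher and 0 to 6 lower. The log2 fold changes then ran 0.14 to 0.18 for Tek, 0.13 to 0.28 for Ptprb, 0.079 to 0.16 for Foxo1, -0.0023 to 0.076 for Tie1, -0.033 to 0.013 for Apln and -0.037 to 0.12 for Vwf. Leaving out a library without the pairs moved the log2 fold change of Tek between 0.011 (without KO 2) and 0.30 (without WT 2), of Ptprb between 0.11 (without WT 2) and 0.28 (without WT 1) and of Foxo1 between 0.041 (without WT 3) and 0.20 (without WT 1), with 0 of them called. It turned the direction of other values: -0.0024 to 0.088 for Tie1, -0.038 to 0.11 for Angpt2, -0.063 to 0.31 for Nos3, -0.0018 to 0.074 for Akt1, -0.039 to 0.37 for Itga4, -0.20 to 0.15 for Apln, -1.46 to 0.86 for Angptl2, -0.24 to 0.16 for Angptl4, -0.0064 to 0.10 for Cdh5 and -0.71 to 0.81 for Vwf. The log2 ratio of Angpt2 to Angpt1 differed by -0.71 to 0.89 with a library left out, by 0.035 with 5 added to each count and by -0.035 with the pairs kept together. The cause of these shifts was not tested. Angpt1, Angpt4 and Svep1 had 32, 58 and 83 reads in all, so their depth limits what can be compared.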
